A study of Mus musculus with 13 samples.

Results

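Genes of the hormonal axis between pituitary and ovary were followed, namely the receptors for follicle-stimulating hormone (Fshr), luteinizing hormone (Lhcgr) and prolactin (Prlr), anti-Müllerian hormone (Amh) and its type II receptor (Amhr2), the inhibin and activin subunits (Inha, Inhba, Inhbb) and follistatin (Fst). They were taken by gene name from a table of TPM values (transcripts scaled to gene length and to a total of 1000000 per library), and they are 9 of its 53465 genes. The 13 libraries came from 3 untreated WT C57BL/6 mouse ovaries and 10 MP EPO-GEMM tumors. EPO-GEMM stands for a genetically engineered mouse model made by electroporation. The left ovary of a female WT C57BL/6 mouse 8 to 12 wk old received a vector with Cas9 and a single-guide RNA against Trp53, a transposon overexpressing MYC, and Sleeping Beauty transposase. The tumors had no drug treatment. Delivery was not directed at a cell type, the study described the tumors as oligoclonal, and each library was made from bulk tissue. Estrous stage and the age of each mouse at collection were not given in the sources used here.

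In the ovary, FSH acts on granulosa cells through FSHR, and LH acts on theca, mature granulosa and luteal cells through LHCGR. Both receptors couple to cyclic AMP and drive steroid synthesis, and prolactin maintains the corpus luteum in rodents. AMH is made by granulosa cells of small growing follicles and signals through AMHR2 and a BMP type I receptor to SMAD proteins. The inhibin α subunit pairs with a β subunit to form inhibin, which lowers pituitary FSH secretion. Dimers of β subunits form activin, which has the opposite action, and follistatin binds activin and blocks it.

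Upstream sequence is shown for 3 receptor genes, because Amhr2 was the member for which the groups overlapped, while Fshr and Lhcgr were at or near 0 in most tumors. RefSeq promoter windows (GRCm38.p6) were matched for 7 of the 9 genes, and Amh and Fst were not matched. The window of Inha and 2 of the 3 windows of Prlr lie inside the deposited bounds of those genes. The 250 bases before each start were searched on both strands for CAAGGTCA, an element read by NR5A1 (SF-1) and NR5A2, for CACGTG, an E-box that reads the same on both strands, and for TGACGTCA, the cyclic AMP response element, which also reads the same on both strands. Matches are in capitals, and the sequences run 5′ to 3′ on the strand of the gene.
Amhr2, chr15:102445117-102445366, plus strand: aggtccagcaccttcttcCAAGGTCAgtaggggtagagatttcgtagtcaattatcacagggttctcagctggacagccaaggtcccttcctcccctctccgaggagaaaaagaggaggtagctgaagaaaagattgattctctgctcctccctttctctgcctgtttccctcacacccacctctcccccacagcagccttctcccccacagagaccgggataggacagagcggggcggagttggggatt
Fshr, chr17:89200676-89200925, minus strand: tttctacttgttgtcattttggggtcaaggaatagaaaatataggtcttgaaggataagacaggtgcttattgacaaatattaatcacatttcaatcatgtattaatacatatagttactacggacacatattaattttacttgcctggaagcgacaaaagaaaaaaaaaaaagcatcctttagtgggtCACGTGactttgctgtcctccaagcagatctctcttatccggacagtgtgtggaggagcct
Lhcgr, chr17:88792015-88792264, minus strand: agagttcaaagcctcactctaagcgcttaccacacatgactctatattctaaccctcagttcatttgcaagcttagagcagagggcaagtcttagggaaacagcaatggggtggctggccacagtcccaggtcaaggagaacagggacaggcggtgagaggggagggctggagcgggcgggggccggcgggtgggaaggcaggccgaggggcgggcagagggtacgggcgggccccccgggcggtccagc
The CAAGGTCA match of Amhr2 began 232 bases before the start. These letters were in 1.33% of the 32851 promoter windows of the same length. The CACGTG match of Fshr began 61 bases before the start, and 6.02% of windows held that motif. TGACGTCA was in 1.55% of windows and in no window of a matched member. These are matches of letters and were not tested for binding.

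The libraries differed in depth. Reads worked back from the TPM steps came to 31445004 to 64013840 per WT ovary and 3892690 to 19906507 per tumor, so that every WT ovary was deeper than every tumor. WT ovaries and MP tumors 1 to 3 shared an IGO number in their library names (here IGO set A), MP tumors 4 to 6 shared another (IGO set B), and MP tumors 7 to 10 a further one (IGO set C), and what the number stands for was not stated. Outside IGO set A the IGO number and the condition cannot be told apart. The 10 highest genes took 55.1% of the TPM of MP tumor 2, against 7.92% to 20.6% in the other 12 libraries. Trp53, the edited gene, ranged from 4.30 to 187 TPM in tumors and from 80.7 to 85.4 TPM in WT ovaries (limma adjusted P = 0.0579), and mouse Myc ranged from 7.09 to 419 TPM against 125.5 to 129 TPM (adjusted P = 0.65).

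Every member except Amhr2 was lower in MP tumors than in WT ovaries, and Amhr2 did not pass the test. The largest log2 fold change, on log2(TPM + 1), was −8.60 for Lhcgr. The count was 8 of 9 lower and 0 higher by limma with Benjamini-Hochberg adjustment over 17277 genes, of which 14.3% were lower and 2.51% higher. No member was higher at an unadjusted P under 0.05 or by voom on the reads worked back. Fshr, Lhcgr and Inhba entered the test only through their WT values. Of the other 6 members, 5 were lower, against 10.4% of genes with at least 1 TPM in at least 3 tumors. For the 8 genes every tumor was below every WT ovary, which held for 16.4% of all genes tested. The median log2 fold change of all genes was −0.58, and it was −0.02 after median-of-ratios scaling and 0.08 after quantile normalization. In bulk tissue, fewer cells of a type and less RNA per cell cannot be told apart.

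**Figure D1:**
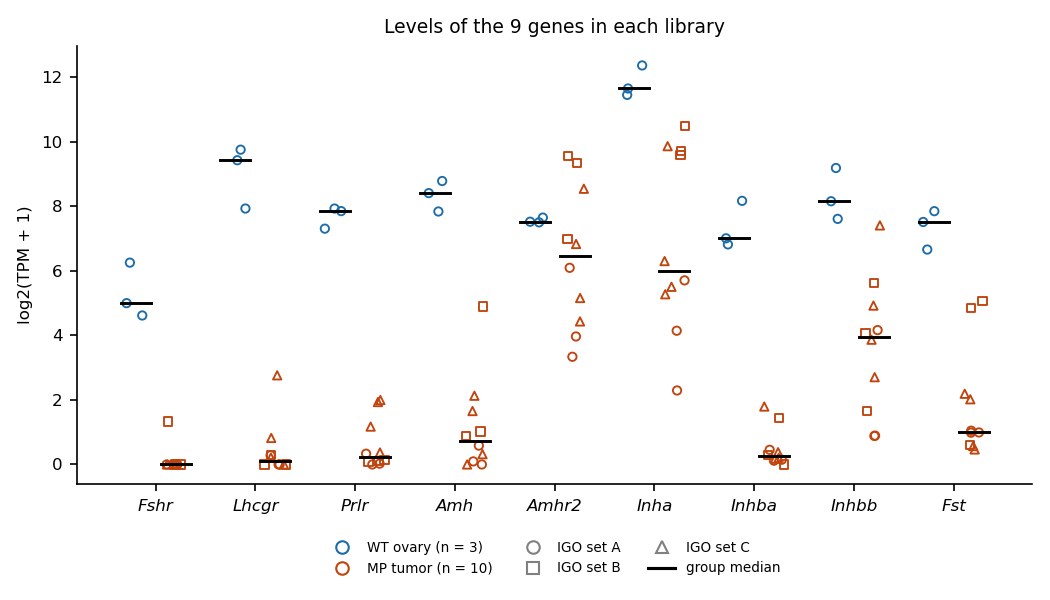
Levels of the 9 genes as log2(TPM + 1) in 3 WT ovaries (blue) and 10 MP tumors (red), with marker shape giving the IGO number and a black bar at the group median. The tumors lie below all WT ovaries for every gene except Amhr2, for which tumors lie on both sides of the WT ovaries.

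By median level, the gonadotropin receptors were the members closest to 0 in tumors. Fshr (ENSMUSG00000032937, chr17:88985170-89200612) was at 31.0, 75.5 and 23.6 TPM in WT ovaries 1, 2 and 3. It was listed at 0 in 9 of 10 tumors, where 3 reads would have been 0.165 to 0.928 TPM, and MP tumor 5 had 4 reads or 1.52 TPM. The log2 fold change was −5.16 ± 0.39 (SE, limma adjusted P = 2.0e-07), and Fshr entered the test only through its WT values. WT ovaries and tumors did not overlap, and the single tumor with reads was the library with the fewest reads in all.

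Lhcgr (ENSMUSG00000024107, chr17:88741549-88791976) stood at 689, 865 and 244 TPM in the WT ovaries. In tumors the lowest value was 0, the median 0.0808 and the highest 5.79 TPM, and 7 of 10 tumors had fewer than 3 reads. The highest tumor, MP tumor 10, had 23 reads, and MP tumor 8 had 12. Even MP tumor 10 was far below the lowest WT ovary, and the log2 fold change was −8.60 ± 0.58 (SE, limma adjusted P = 6.9e-08). Lhcgr entered the test only through its WT values.

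Prlr (ENSMUSG00000005268, chr15:10177238-10349180) overlaps another gene, Gm21973, on the same strand, so its reads could have been split by the counting. Its WT levels were 243, 230 and 158 TPM, and its tumor levels ran from 0 through a median of 0.182 to 2.99 TPM. The tumors with most reads were all of IGO set C, namely MP tumors 7, 8 and 9 with 105, 118 and 122 reads, at 2.83, 1.26 and 2.99 TPM, and the other 7 were under 0.3 TPM. The groups did not overlap, and the log2 fold change was −7.08 ± 0.51 (SE, limma adjusted P = 1.3e-07).

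The hormone AMH and its receptor did not move alike. Amh (ENSMUSG00000035262, chr10:80805243-80807648) was at 340, 441 and 228 TPM in WT ovaries. Its tumor values had a lowest level of 0, a median of 0.675 and a highest level of 28.9 TPM, the last in MP tumor 5 from 61 reads. The remaining 9 tumors were at 3.38 TPM or below, and all 10 were under every WT ovary. The log2 fold change was −7.19 ± 0.83 (SE, limma adjusted P = 2.1e-05).

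Amhr2 (ENSMUSG00000023047, chr15:102445367-102454630) was the steadiest member among WT ovaries, at 181, 183 and 200.3 TPM, a ratio of highest to lowest of 1.11. Among tumors it had the lowest value at 9.12, the median at 90.3 and the highest at 751 TPM. MP tumors 4, 5 and 10 were above every WT ovary at 648, 751 and 373 TPM, and the other 7 tumors were below every WT ovary. The log2 fold change was −1.14 with a 95% interval from −3.59 to 1.31 (limma adjusted P = 0.49), so the interval allowed a change in either direction. Within IGO set A alone, where MP tumors 1 to 3 were at 67.4, 14.7 and 9.12 TPM, Amhr2 was lower by a log2 fold change of −3.09 (adjusted P = 0.0032). With the IGO number as a covariate it was also lower (adjusted P = 0.034), and over the 11 alternative settings the adjusted P ran from 6.4e-07 to 0.78. The lowest came from a replicate block on the same 6 libraries, whose numbers did not pair the samples. Median fold change over all genes was −1.44 within IGO set A.

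**Figure D2:**
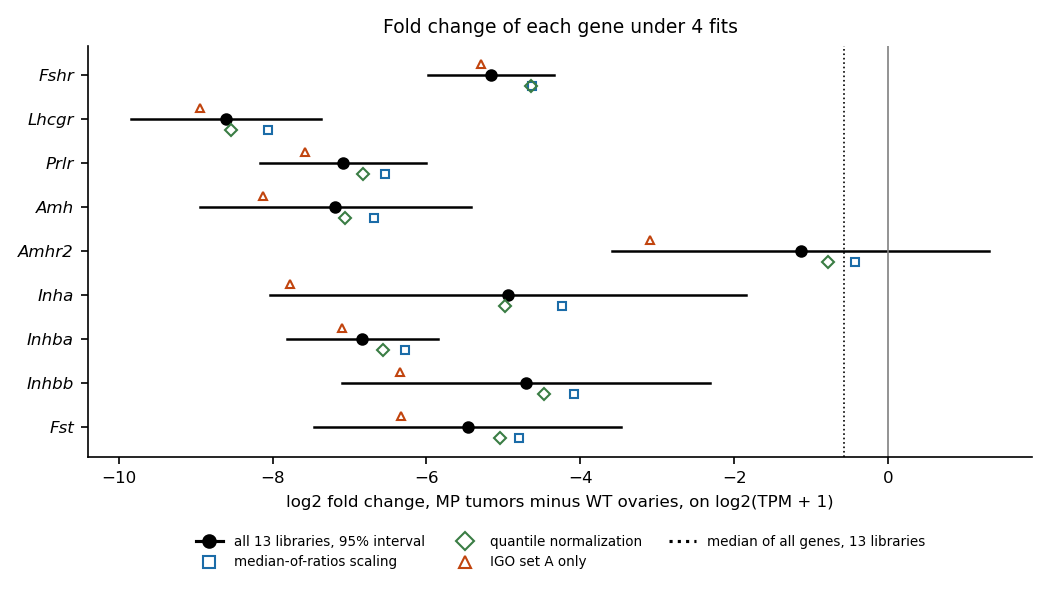
Log2 fold change of MP tumors against WT ovaries on log2(TPM + 1) for each gene, with 95% intervals for the fit of 13 libraries (black) and point values for median-of-ratios scaling, quantile normalization and IGO set A alone. The Amhr2 interval, −3.59 to 1.31, is the only one that reaches 0, and the dotted line marks the median of all genes at −0.58.

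Of the inhibin and activin subunits, the α subunit was the most abundant in WT ovaries and both β subunits were lower in tumors. Inha (ENSMUSG00000032968, chr1:75507077-75510366) was at 3225, 5290 and 2810 TPM in WT ovaries, above the other 8 members in each of them. Tumor levels ran from 3.90 through a median of 64.6 to 1430 TPM. Tumors formed separate sets, with MP tumors 4, 5, 6 and 10 at 775 to 1430 TPM and the other 6 at 3.90 to 78.1 TPM. Both sets were below the WT ovaries, and the log2 fold change was −4.94 ± 1.45 (SE, limma adjusted P = 0.031). Inha no longer passed when any single WT ovary was left out, with adjusted P from 0.11 to 0.14 and fold changes from −5.12 to −4.67. Within IGO set A alone its log2 fold change was −7.78, where the median over all genes was −1.44.

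Inhba (ENSMUSG00000041324, chr13:16011851-16031621), the βA subunit, overlaps 2 annotated genes on the opposite strand, and it is not stated whether the counting used strand. It was at 112, 287 and 128 TPM in WT ovaries. In tumors it ranged from 0 to 2.47 TPM with a median of 0.188, and the highest tumors were MP tumor 9 with 42 reads and MP tumor 5 with 14 reads. The log2 fold change was −6.83 ± 0.46 (SE, limma adjusted P = 6.7e-08), and Inhba entered the test only through its WT values.

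Inhbb (ENSMUSG00000037035, chr1:119415465-119422248), the βB subunit, was at 285, 583 and 195 TPM in WT ovaries. In tumors the lowest value was 0.846, the median 14.6 and the highest 169 TPM. The highest, MP tumor 9, lay just under WT ovary 3 and above the next tumor, MP tumor 5, at 48.3 TPM. The log2 fold change was −4.70 ± 1.12 (SE, limma adjusted P = 0.010), and the call was lost without WT ovary 1 (adjusted P = 0.058) or WT ovary 2 (adjusted P = 0.082). MP tumor 9 also had the highest summed level of 5 stroma markers, 2466 TPM against 17.7 to 1502 TPM in the other tumors. Of the 8 epithelial and mesothelial markers, 4 were highest in this tumor, namely Upk3b (335 TPM, next 75.9), Msln (43.8, next 10.6), Pax8 (23.2, next 1.57) and Krt7 (12.1, next 9.01), and the whole list summed there to 865 TPM, below 1233 TPM in MP tumor 4. The part of these markers in the Inhbb value was not tested.

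Fst (ENSMUSG00000021765, chr13:114452262-114458949), which encodes the activin-binding protein, was at 182, 230.1 and 100.3 TPM in WT ovaries, and an antisense gene overlaps it. It ran in tumors from 0.381 through a median of 1.03 to 32.8 TPM. MP tumors 4 and 5 stood at 32.8 and 27.6 TPM, and the other 8 tumors were at 3.57 TPM or below. No tumor reached the WT range, and the log2 fold change was −5.46 ± 0.94 (SE, limma adjusted P = 0.00095).

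The order of levels differed between the groups. By mean TPM the WT order was Inha, Lhcgr, Inhbb, Amh, Prlr, Amhr2, Inhba, Fst and Fshr, and from Lhcgr to Fst each gene's range over the libraries overlapped that of the next. Within a library, Lhcgr was above Inhbb and Amh above Prlr in 3 of 3 WT ovaries, while the other neighbors from Inhbb to Fst changed order between ovaries. Inha above Lhcgr and Fst above Fshr were the steps without overlap. In tumors the order was Inha, Amhr2, Inhbb, Fst, Amh, Prlr, Lhcgr, Inhba and Fshr, with all neighboring ranges overlapping. Inha was the highest member in 7 tumors, Amhr2 in MP tumors 1 and 2, and Inhbb in MP tumor 9. Among WT ovaries, WT ovary 2 had the highest value of 7 members and WT ovary 3 the lowest of 7, with Lhcgr differing 3.55-fold and Fshr 3.20-fold between the highest and lowest WT ovary. The luteal markers Akr1c18, Ptgfr, Parm1 and Sfrp4 were instead highest in WT ovary 3. Akr1c18, a progesterone-inactivating enzyme, was at 1175, 2849 and 6896 TPM in WT ovaries 1, 2 and 3. The remaining luteal marker, Scarb1, was lowest in WT ovary 3, at 982, 793 and 442 TPM.

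**Figure D3:**
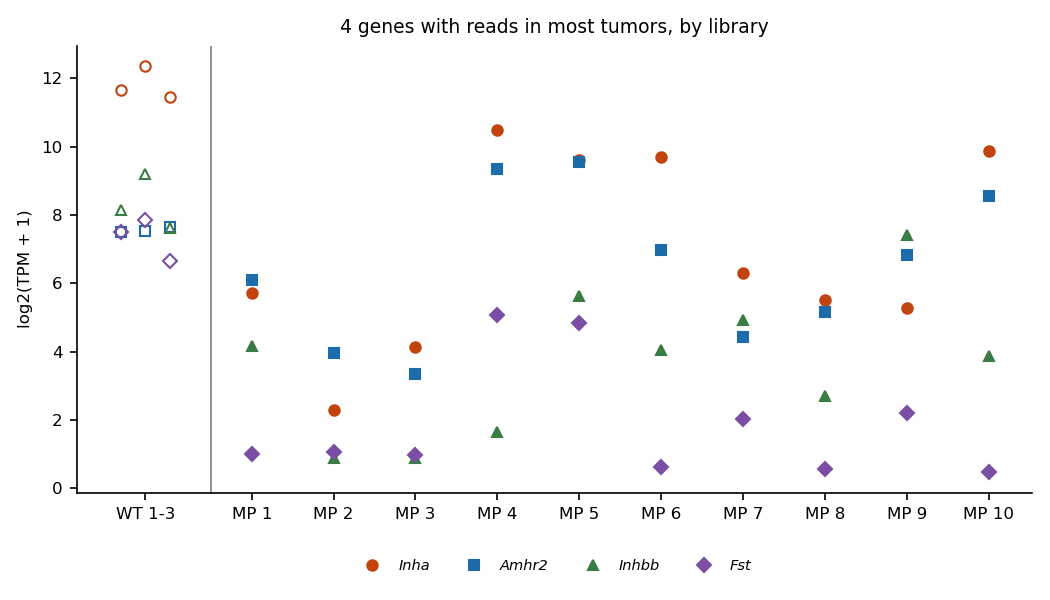
Inha, Amhr2, Inhbb and Fst as log2(TPM + 1) in the 3 WT ovaries (open symbols) and in each MP tumor (filled symbols). Inha and Amhr2 are both high in MP tumors 4, 5 and 10, and Inhbb is the highest of the 4 genes in MP tumor 9.

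Ratios within a library do not depend on how libraries were scaled, apart from the pseudocount of 1, and 5 were compared by an exact permutation test (2-sided, with every assignment of 3 libraries to the WT group enumerated, smallest possible P 0.0035) with Benjamini-Hochberg adjustment. The log2 ratio of Amhr2 to Amh was −0.79 ± 0.55 (SD, n = 3) in the WT group, against 5.27 ± 1.88 (SD, n = 10) for the MP tumors, a difference of 6.05 (exact P = 0.0035, adjusted P = 0.0087), or 7.53 with a pseudocount of 0.1. Amh had fewer than 3 reads in 4 tumors, where the ratio depended on the pseudocount. All 10 tumors were above all 3 WT ovaries, from 3.24 to 8.55 against −1.26 to −0.19. The log2 ratio of the α subunit to the summed β subunits was 2.91 ± 0.27 (SD, n = 3) in the WT group, against 3.24 ± 3.06 (SD, n = 10) for the MP tumors, and did not pass (exact P = 0.85, adjusted P = 0.88). Its values spread widely among tumors, from −2.15 in MP tumor 9, where β subunit levels exceeded α, to 8.83 in MP tumor 4. Follistatin relative to the β subunits was −1.57 ± 0.41 (SD, n = 3) in the WT group, against −1.77 ± 2.49 (SD, n = 10) for the MP tumors (exact P = 0.88, adjusted P = 0.88). The highest tumor for this ratio was again MP tumor 4, at 3.42, and the lowest MP tumor 9, at −5.24.

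The log2 ratio of Inhbb to Inhba was 0.99 ± 0.37 (SD, n = 3) in the WT group, against 3.12 ± 1.65 (SD, n = 10) for the MP tumors (exact P = 0.066, adjusted P = 0.11), with 8 of 10 tumors above every WT ovary. The difference was 2.13, against 3.73 with a pseudocount of 0.1, which passed (adjusted P = 0.0087), and 0.76 within IGO set A, where no ratio could pass. Inhba had a tumor median of 0.188 TPM, below the pseudocount of 1, so the tumor value of this ratio depended on the pseudocount. Lhcgr to Fshr fell from 3.75 ± 0.60 (SD, n = 3) to 0.30 ± 1.02 (SD, n = 10) (exact P = 0.0035, adjusted P = 0.0087). With a pseudocount of 0.1 this difference, −2.81, no longer passed (adjusted P = 0.16). Both genes had fewer than 3 reads in most tumors, so the tumor value of that ratio was set mainly by the pseudocount.

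**Figure D4:**
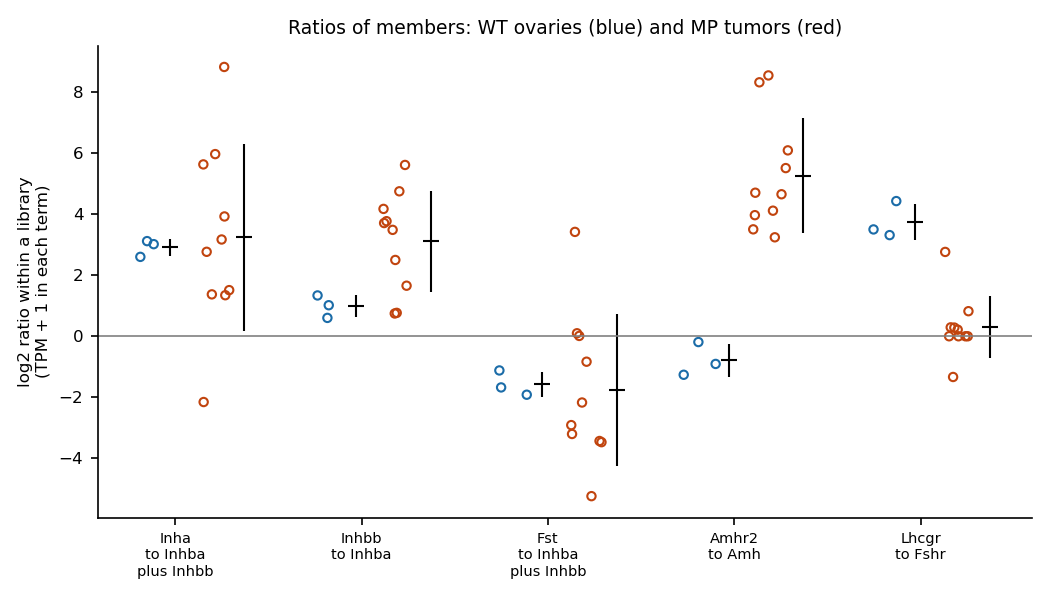
Log2 ratios of members within each library, with 1 added to the TPM of each term, for WT ovaries (blue, n = 3) and MP tumors (red, n = 10), and crosses at the mean with bars of 1 SD. Amhr2 to Amh is the ratio for which all tumors lie above all WT ovaries, and the ratios of Inha and of Fst to the β subunits spread on both sides of the WT values.

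Among tumors, 4 members had at least 10 reads in at least 5 tumors (Amhr2, Inha, Inhbb and Fst), which gave 6 pairs. Of these pairs, Inha and Amhr2 passed over the 10 tumors in Pearson and Spearman correlation (limit of 0.05 for the permutation P adjusted over the 6 pairs) and the other 5 did not. The permutations took no account of the IGO number. Because Inha split the tumors into sets, the relation was recomputed within the 6 tumors of lower Inha, a step chosen after the values were seen. There Pearson's r for Inha and Amhr2 was 0.503 (exact permutation P = 0.31, adjusted over 3 pairs 0.46) and Spearman's rho was 0.429 (exact permutation P = 0.42, adjusted 0.63). This set was cut on Inha itself and holds 6 tumors, so a value that misses the threshold does not show that the relation is absent there. The 4 tumors with high Inha had 125 to 751 TPM of Amhr2 against 9.12 to 113 TPM in the other 6. The summed level of the 8 granulosa markers overlapped between the sets (275 to 1598 TPM against 149 to 828 TPM), also without Kctd14 and Gatm (99.8 to 273 TPM against 18.1 to 527 TPM), as did that of the 5 theca and interstitial markers (119 to 656 TPM against 13.4 to 173 TPM). Inhbb and Fst overlapped as well. The sets were drawn from Inha itself and were not compared by a test.

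Inha was the 1 member past the threshold when MP tumors of IGO set A were compared with the other tumors, and 1 of 9 is below the share of all genes there. The MP tumors of IGO set A had 3.90 to 51.2 TPM against 37.8 to 1430 TPM in the other 7 tumors, with the high values in MP tumors 4, 5, 6 and 10 and MP tumors 7, 8 and 9 at 37.8 to 78.1 TPM, a log2 difference of −4.06 (limma adjusted P = 0.021), while 30.1% of all genes were lower in that comparison. At an unadjusted P under 0.05, 3 members were lower. Inha did not pass after median-of-ratios scaling (−2.81, adjusted P = 0.12) or quantile normalization (−3.08, adjusted P = 0.12). Amhr2 differed by −2.80 (limma adjusted P = 0.057), with 5 of the 7 other tumors above all 3. Within IGO set A all 9 members were lower than in WT ovaries, from −3.09 for Amhr2 to −8.95 for Lhcgr, and 62.4% of all genes were lower there. Amhr2 and Inha were the only members at 1 TPM or more in all 3 of these tumors. The other members entered that fit only through their WT values, so their calls add little.

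The genes whose log2(TPM + 1) followed a member most closely over the 10 tumors were listed by Pearson's r among 13805 genes. For Amhr2 they were Camk1 (0.967), Flot1 (0.964) and Aldh3a2 (0.960). For Inha they were Pak6 (0.963), Naglu (0.961) and Tmem206 (0.960). Inhbb was nearest to Sema7a (0.940), Hes1 (0.938) and Pdlim7 (0.932), and Fst to Plscr2 (0.965), 9930012K11Rik (0.962) and Enpp2 (0.951). These values describe likeness over tumors that differ in library depth and IGO number, neither of which was taken into account.

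Genes acting with these members were then counted in the comparison of MP tumors with WT ovaries, against the 14.3% of all genes that were lower. In gonadotropin signal transduction (hormone subunits, adenylyl cyclases, protein kinase A and its targets), 4 of 21 tested genes were lower and 0 higher, with a median log2 fold change of −1.15. The 3 largest changes were those of Foxo1, a transcription factor restrained by FSH in granulosa cells (171 ± 65.3 TPM, SD, n = 3, in WT ovaries against a tumor median of 3.80, log2 fold change −4.81), Rgs2, a regulator of G-protein signaling (−4.54), and Adcy9, an adenylyl cyclase (−2.87). In this list 1 gene was higher at an unadjusted P under 0.05, 3 were higher by voom, and 2 were higher after median-of-ratios scaling or quantile normalization. Fshb was listed at 0 in all 13 libraries and Cga at 0 in all WT ovaries.

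The list of genes that FSH and LH induce in follicles and corpora lutea held 24 genes. Of these, 7 did not pass the filter and were not tested (Areg, Ereg, Ptgs2, Has2, Pgr, Snap25 and Sult1e1). Of the 17 tested, 9 were lower and 0 higher, with a median of −2.77. Cyp19a1 and Ptx3 had entered the test only through their WT values, and of the other 15 genes 7 were lower, against 10.4% of all genes with at least 1 TPM in at least 3 tumors. Those with the largest changes were the steroid synthesis genes Cyp11a1, which makes pregnenolone (6661 ± 258 TPM, SD, n = 3, against a tumor median of 6.59, log2 fold change −9.61), Hsd3b1 (−9.25) and Star, which carries cholesterol into mitochondria (−7.77). No gene of the list was higher at an unadjusted P under 0.05 or by voom, which also held for the 3 lists that follow, although after quantile normalization 1 gene of the AMH and BMP list and 1 of the activin list were higher.

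In the list of AMH and BMP receptors and SMADs, 8 of 19 were lower and 0 higher, with a median of −2.04, against 14.3% of all genes lower. Bmp15 and Id4 had entered only through their WT values. Of the other 17 genes 7 were lower, against 10.4% of all genes with at least 1 TPM in at least 3 tumors. The largest changes were those of the oocyte ligands Bmp15 (27.1 ± 8.30 TPM, SD, n = 3, against a tumor median of 0, −4.71) and Gdf9 (−3.83), followed by the type I receptor gene Bmpr1b (−3.76). The activin list of receptors, inhibin coreceptor and binding proteins had 2 of 15 lower and 0 higher, with a median of −1.27. That count was near the 14.3% share of all genes. Tdgf1 had entered only through its WT values, and of the other 14 genes 1 was lower, against the same 10.4%. The lower genes were Pcsk5, a proprotein convertase (−4.10), and Tdgf1, a coreceptor of the family (−1.66). Inhbe and Mstn, further ligands of this list, were at 0 in all WT ovaries and at most at 0.338 and 0.238 TPM in tumors. In prolactin signaling 7 of 13 were lower and 0 higher, with a median of −2.26, led by the luteal genes Akr1c18 (−9.52), Ptgfr, the prostaglandin F receptor gene (−5.63), and Hsd17b7 (−5.40). Prl was at 0 in all WT ovaries and had 3 and 13 reads in MP tumors 5 and 6.

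**Figure D5:**
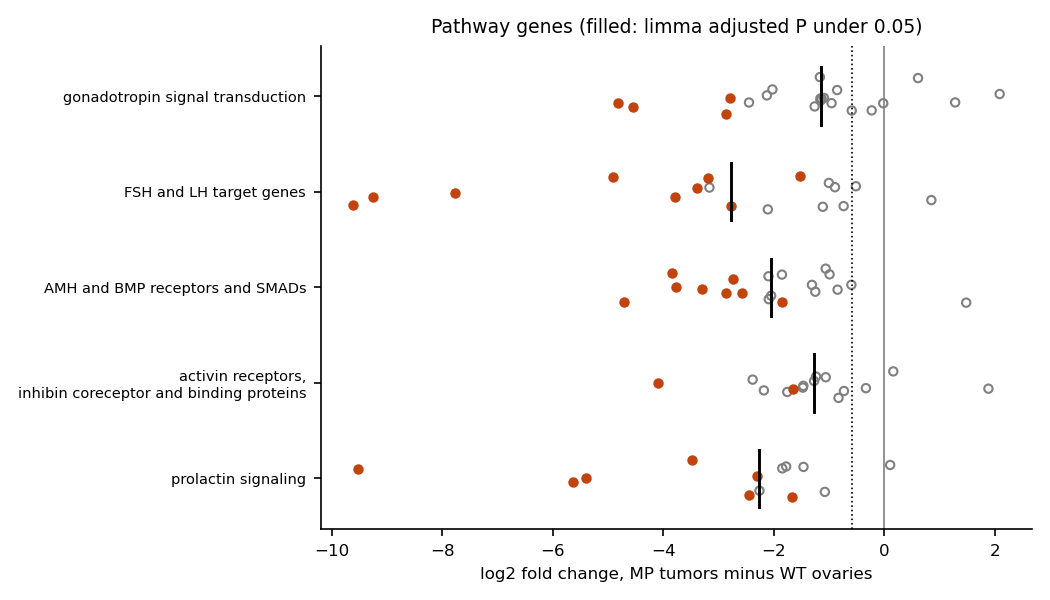
Log2 fold change of MP tumors against WT ovaries for the tested genes of 5 pathway lists, each point a gene, filled where the limma adjusted P was under 0.05, with a black bar at the list median and a dotted line at the median of all genes, −0.58. No filled point is above 0, and the list medians run from −2.77 for FSH and LH target genes to −1.15 for gonadotropin signal transduction.

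Markers of ovarian cell types were counted in the same comparison, in which 14.3% of all genes were lower, or 10.4% of those passing through tumors. All 5 luteal markers were lower, with summed levels of 3900 to 11256 TPM in WT ovaries and 13.2 to 193 TPM in tumors. Summed oocyte markers were at 296 to 441 TPM against 1.38 to 22.8 TPM, and the oocyte factor Figla was at 0 in every tumor. All 8 were called lower, but 7 of them had entered the test only through their WT values. Granulosa markers were lower for 4 of 8, of which Cyp19a1 had entered only through its WT values, with summed levels of 1283 to 2002 TPM against 149 to 1598 TPM. Kctd14 and Gatm made up most of the high tumor sums (1197 TPM in MP tumor 4 and 1467 TPM in MP tumor 5), and the other 6 markers summed to 973 to 1693 TPM in WT ovaries against 18.1 to 527 TPM in tumors. This split of the list was made after the values were seen. Foxl2, Cyp19a1, Nr5a2 and Serpine2 were each below every WT ovary in all 10 tumors, which held for 16.4% of all genes tested. The other granulosa markers did not separate. Kctd14 and Gatm were each above every WT ovary in 4 tumors and Mro in 1, and Hsd17b1 was within the WT range in 1. Theca and interstitial markers were lower for 1 of 4 tested (2072 to 2993 TPM against 13.4 to 656 TPM). Summed epithelial and stromal markers ran from 5.61 to 1233 TPM and from 17.7 to 2466 TPM in tumors, on both sides of the WT ranges of 330 to 372 and 815 to 1224 TPM, with 3 of 7 and 2 of 5 lower. Endothelial markers were lower for 2 of 4 and leukocyte markers for 0 of 3, of which 2 were lower at an unadjusted P under 0.05 and by voom. Cyp19a1, Hsd17b1, Star, Gdf9, Bmp15, Akr1c18 and Ptgfr are both in a marker list and in a pathway list. The part of cell-type makeup in the values of the 9 members was not tested.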

How the data were processed

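Bulk RNA-seq was available for 3 WT ovaries and 10 MP tumors, grouped by the labels. The values deposited by the authors are TPM, in a single table of genes by libraries. The submitters' processing notes name FastQC 0.11.5, Trimmomatic 0.36, STAR 2.5.3a and featureCounts 1.6.3 with mm10. The extract protocol instead describes HTSeq counts, hg19 and RPKM. The values summed to 1000000 per library over mouse genes, and 96.0% of genes had GENCODE M21 coordinates, so they were read as mouse TPM. Whether counting used strand was not stated.

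From the TPM values, log2(TPM + 1) was fitted with limma 3.58.1 (trended, robust) in R 4.3.3 for genes with at least 1 TPM in at least 3 libraries, with Benjamini-Hochberg adjustment and a threshold of 0.05. Fold changes on this scale understate the change of low genes. TPM times gene length gave whole reads (within 0.01, checked below 1000 reads) for 100% of values in each library, and these reads set depth, the floor of 3 reads and a voom alternative. Floors cover counting error only. Ratios were tested by exact permutation, and correlations with 100000 permutations. The fit was also run on simulated data that had the same dispersion in both groups. The real tumors varied more than the WT ovaries, so that run does not show how the fit behaves here. Libraries of a group differed by more than sampling noise (chi-square per degree of freedom from 25.8 to 591). The labels do not say that the samples of a group were separate animals, and P values measure the spread between these samples.

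The 9 members and all gene lists were chosen with earlier results of these data known. Named were all members, the 3 genes of each pathway list with the largest fold change among those past the threshold, list genes at 0 in a whole group, and the 3 nearest genes by Pearson's r. Alternatives covered scaling, pseudocount, filters, the IGO number and leaving out each library.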

Additional observations from a re-analysis of the deposited data

Results flagged for a closer look

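Among the 10 tumors, 14 measures (the 9 genes and 5 ratios) were checked for a single value far from the rest by Dixon's ratio at its 95% critical value. The critical value assumes normally distributed values, for which chance gives about 1 in 20 for a single measure. The gene measures were TPM, bounded at 0 with many values near it, so that rate need not hold for them. In all, 5 were found. They are not independent: with 9 tumors at 0 any value of Fshr above 0 is found, and the ratio of Lhcgr to Fshr repeats the Lhcgr value of the same tumor. MP tumor 5 had 1.52 TPM of Fshr while the other 9 tumors were at 0, and the same tumor had 28.9 TPM of Amh with the next tumor at 3.38 TPM. MP tumor 10 had 5.79 TPM of Lhcgr with the next tumor at 0.768 TPM. It also had the highest log2 ratio of Lhcgr to Fshr, 2.76, with the next at 0.82. MP tumor 9 had 169 TPM of Inhbb with the next tumor at 48.3 TPM. MP tumor 5 was the library of fewest reads, 3892690. Its Fshr value rested on 4 reads and its Amh value on 61 reads.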

How the results depend on the processing

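Of the 9 members, 8 kept direction and side of the threshold in every alternative that tested them, apart from leaving out libraries. Their log2 fold changes ran from −8.27 to −4.62 for Fshr, −11.04 to −8.06 for Lhcgr, −9.66 to −5.96 for Prlr, −8.70 to −6.68 for Amh, −7.78 to −4.24 for Inha, −8.85 to −6.00 for Inhba, −6.34 to −3.99 for Inhbb and −6.34 to −4.79 for Fst. Amhr2 became lower within IGO set A, with the IGO number as a covariate and with the replicate block, and its log2 fold change ran from −3.09 to −0.43. With at least 1 TPM required in 7 libraries, 4 members were lower, because 4 others were no longer tested. Leaving out 1 library gave 6 to 8 members lower. Within IGO set A, where 62.4% of all genes were lower, the lists had 18 of 20, 16 of 17, 18 of 19, 13 of 15 and 12 of 13 genes lower (gonadotropin signal transduction, FSH and LH targets, AMH and BMP, activin, prolactin), and median-of-ratios scaling left 1 in the activin list. In the comparison by IGO number among tumors, 0 members were lower after median-of-ratios scaling or quantile normalization, with 1 at an unadjusted P under 0.05 in each. With a pseudocount of 0.1 the ratio Inhbb to Inhba passed at 3.73 and Lhcgr to Fshr no longer did at −2.81. Within IGO set A, where the smallest exact P was 0.1, the ratio differences were −0.90 for α to β subunits and 0.54 for Fst to β subunits, both reversed, 0.76 for Inhbb to Inhba, 5.03 for Amhr2 to Amh and −3.65 for Lhcgr to Fshr. The causes were not tested.

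Leaving out 1 library gave ranges of −0.30 to 0.92 for α to β subunits (reversed without MP tumor 4), −0.78 to 0.18 for Fst to β subunits (reversed without WT ovary 1 or MP tumor 9), 1.85 to 2.40 for Inhbb to Inhba, 5.69 to 6.35 for Amhr2 to Amh and −3.72 to −3.10 for Lhcgr to Fshr. The numbers 1 to 3 of WT ovaries and MP tumors did not pair the samples (correlations of deviations −0.10, −0.01 and 0.00). A replicate block over these 6 libraries gave the same ratio differences, −0.90, 0.54, 0.76, 5.03 and −3.65, and 9620 genes lower against 9504 without it. Voom on the reads worked back called 4045 genes lower and 1876 higher. Median-of-ratios scaling gave 1897 lower and 1274 higher and quantile normalization 2091 and 1904, against 2463 and 433. Of the 10 tumors, 9 had fewer than 3 reads of Fshr, 7 of Lhcgr, 4 of Prlr, 4 of Amh and 2 of Inhba, which limits their tumor values.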

Other observations

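Cga, which encodes the α subunit shared by FSH and LH, had 0 reads in all 3 WT ovaries and reads in 8 of 10 tumors. It reached 44.3 TPM in MP tumor 6 (119 reads), 34.7 TPM in MP tumor 2 (184 reads), 6.63 TPM in MP tumor 5 (8 reads) and 4.08 TPM in MP tumor 1 (28 reads), and the comparison did not pass (limma adjusted P = 0.17). The β subunit genes did not follow. Fshb had 0 reads in all 13 libraries, and Lhb had 3 to 12 reads in WT ovaries and at most 0.609 TPM in a tumor. Pgr, the progesterone receptor gene that LH induces in follicles, was at 66.0 TPM in MP tumor 9 from 1498 reads and at 0.191 TPM or below in the other 9 tumors, with 0.684 to 0.993 TPM in WT ovaries. The same tumor had the highest Inhbb, summed stroma marker, Upk3b, Msln, Pax8 and Krt7 levels of the 10 tumors. The other epithelial and mesothelial markers were each higher in another tumor. They were Krt8 (31.9 TPM against 425), Krt18 (264 against 496), Krt19 (151 against 205) and Epcam (4.43 against 15.7). Fstl3, a follistatin relative that binds activin, had a WT mean of 3.40 ± 1.16 TPM (SD, n = 3), a tumor median of 14.4 TPM and a highest tumor value of 117 TPM (limma adjusted P = 0.15). These genes were picked out after their values were seen.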
